A study of Lymantria dispar dispar and Lymantria dispar asiatica with 30 samples.

Results

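The 150 genes described here are those whose transcript level rose at every sampling step through the pupal life of female spongy moths (*Lymantria dispar*) and had the largest smallest step, out of 19654 genes measured. For each gene, the deposited values were averaged over the 6 libraries of each sampling day, both strains together. Genes were kept whose 4 steps (day 1 to 3, 3 to 5, 5 to 8 and 8 to 11) all lay above 0 with none above 2.5, and the 150 with the largest smallest step were taken. A total of 1078 genes (5.49% of all) rose at all 4 steps, the upper limit removed 44 of them, and 1034 were eligible. The course over days therefore chose the members and is given below as a description without a test. Differences between the strains did not enter the rule directly and were tested. Genes rising in only 1 strain have smaller steps in the mean of both and were less likely to be chosen.

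RNA was sequenced from 30 whole female pupae, 3 of each strain at each of 5 ages, counted in days from pupation (days 1, 3, 5, 8 and 11), as 1 library per pupa. The flight-capable Asian strain (ASM) was represented by the RM colony alone and the European strain (ESM) by the CT colony alone. Their larval diets held 0.21 g and 0.13 g of iron phosphate per litre, respectively, so strain, colony and diet cannot be told apart. Pupae came from eggs of many females mixed within a colony, no pupa was treated, and the draft genome used for alignment was that of ASM for all 30 libraries. The deposited values are on the scale of the variance-stabilising transformation (VST), which is close to log2 only for part of its range. A doubling was worth 0.98 VST units from a normalised count of 10, 1.65 from 100 and 1.13 from 1000, and levels are therefore given as normalised counts. These are reads recovered from the deposited values, divided by the size factor of the library. The libraries held 2638192 to 10787654 recovered reads (median 5178430). In whole pupae, more cells of a type and more RNA per cell cannot be told apart.

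During the pupal stage of a moth, larval tissues are broken down while wings, flight muscle, nervous system, antennae and, in females, the ovary with its eggs are built. Tissues that grow throughout this period add their transcripts gradually, whereas cuticle genes are switched on in short bursts around each secretion of cuticle. Insects fuel this remodelling from stored fat, glycogen and trehalose, the main sugar of insect blood.

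The members started below the typical gene and ended above it. Their median normalised count was 14.9, 26.8, 52.7, 111 and 151 from day 1 to day 11 (each a median over 150 genes of means of 6 pupae). Over all genes the median was 32.6, 31.2, 33.0, 34.8 and 33.2 on the same days. From day 1 to day 11 the normalised count of a member rose by a median of 7.21 times, with quartiles of 3.84 and 14.6. These ratios are over the 147 members with more than 3 reads summed over the day 1 pupae. Among these, 146 rose at least 2-fold, 96 at least 5-fold, 58 at least 10-fold and 3 at least 50-fold, and the smallest ratio was 1.99, for Lda.2283. Means of the normalised counts rose at all 4 steps in all 150 members, which the rule all but fixed, since these counts are recovered from the same values.

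**Figure D1:**
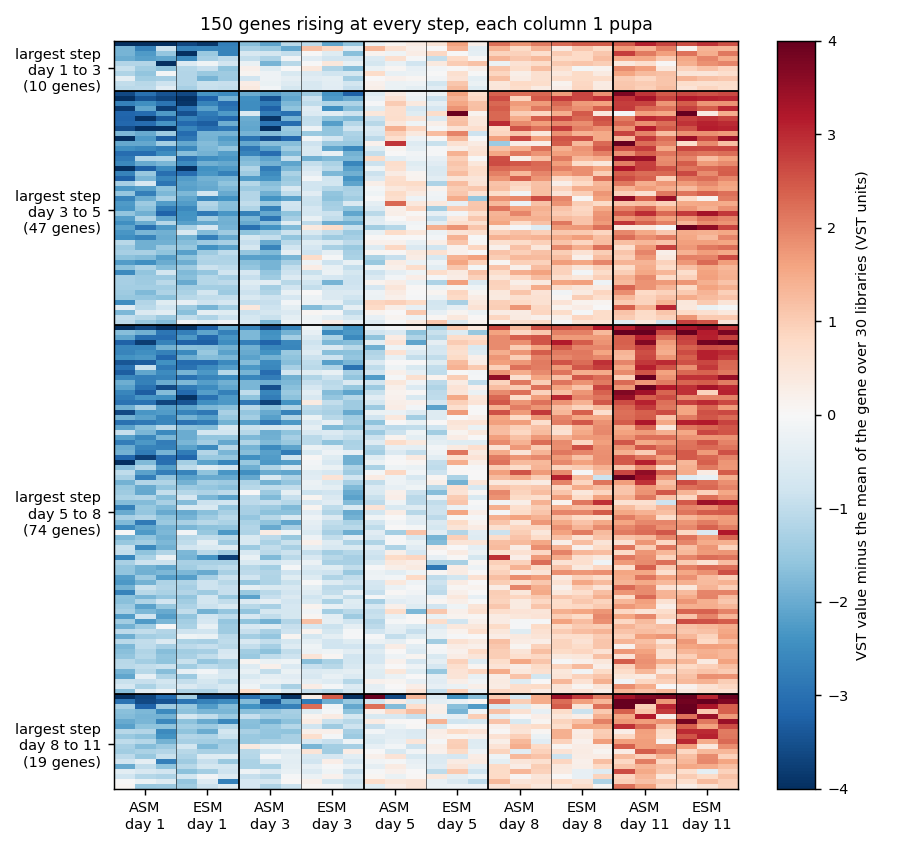
Each row is 1 of the 150 genes and each column 1 pupa, ordered by day and strain, and colour gives the VST value minus the mean of the gene over 30 libraries (cut at 4 in both directions). Rows are grouped by the step with the largest rise, with 10, 47, 74 and 19 genes in the order of the steps.

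The rise was not uniform over time. In VST units the median step of the members was 0.61 from day 1 to 3, 0.94 from day 3 to 5, 1.21 from day 5 to 8 and 0.55 from day 8 to 11. The largest step was that from day 5 to 8 in 74 members and that from day 3 to 5 in 47. The last step was the smallest one in 77 members and the first in 40. The steps cover 2, 2, 3 and 3 days. Divided by these lengths, the rise in VST units was steepest from day 3 to 5 in 81 members and from day 5 to 8 in 39. Median rates were 0.31, 0.47, 0.40 and 0.18 VST units per day. A doubling is worth 0.98 VST units from a count of 10 and 1.65 from 100. The order of the steps therefore depends on this scale, and the steps were not ranked by fold. In counts, a median of 29.7% of the total rise had taken place by day 5 (quartiles 23.3% and 36.5%). The extremes were Lda.7260, with 6.25% of its rise by day 5, and Lda.39630, with 71.7%.

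The summed reads of the members stayed a small part of each library. Their share of recovered reads was 0.112% ± 0.0362, 0.204% ± 0.0414, 0.253% ± 0.0441, 0.469% ± 0.0591 and 0.736% ± 0.112 in the order of the days (SD, n = 6 pupae of a day). The 6 pupae of day 8 lay above all pupae of day 5 (0.192 to 0.322%) and below all pupae of day 11 (0.542 to 0.842%). Pupae of days 3 and 5 overlapped. On each day the mean share was higher in ESM than in ASM pupae. It was 0.136% ± 0.0330 against 0.0887% ± 0.0226 on day 1 and 0.784% ± 0.0429 against 0.689% ± 0.150 on day 11 (SD, n = 3 per group), and single pupae of the strains overlapped on all 5 days.

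**Figure D2:**
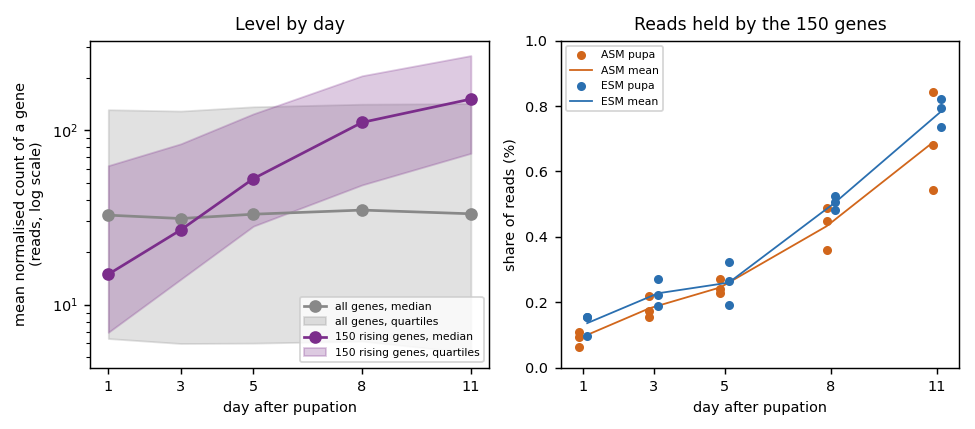
Left, median and quartiles over genes of the mean normalised count on each day (log axis), for the 150 members and for all genes. Right, percent of reads held by the members in each pupa, with group means as lines. The members rose from a median of 14.9 to 151 while the median of all genes stayed between 31.2 and 34.8.

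The rise was less regular in the means of each strain and between single pupae than in the day means of both strains. In ASM pupae alone, by means of the 3 pupae of a day, 121 members rose at all 4 steps, 27 at 3 and 2 at 2. In ESM pupae alone these numbers were 128, 20 and 2, and 107 members rose at all 8 steps of both strains. Of the 1200 steps of members within a strain, 55 were not upward. All 6 pupae of a day lay above all 6 of the day before in 5 members from day 1 to 3, in 25 from day 3 to 5, in 51 from day 5 to 8 and in 8 from day 8 to 11. Among all genes such a separation upward was seen in 2.24%, 4.81%, 9.17% and 2.25% for the same steps. Only Lda.8761 was separated at all 4 steps, and 80 members were separated at none. Every pupa of day 11 lay above every pupa of day 1 in 147 members, against 13.2% of all genes. The rule used the day means of these same libraries and favours such separations, so they are a description only. The members whose pupae of days 1 and 11 were not separated were Lda.32890, Lda.4835 and Lda.17288.

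When the same rule was applied without replicate 1, 2 or 3 of each group, the 150 genes chosen could be looked up in the 10 libraries left out. In these, 66, 80 and 90 of the 150 rose at all 4 steps (44.0%, 53.3% and 60.0%), against 3.20%, 3.86% and 3.90% of all genes. At least 3 of the 4 steps were upward in 134, 140 and 137 of them, for which the share of all genes is not given here. At single steps, 45.9% to 51.3% of all genes rose in the libraries left out. The lists themselves shared 79, 85 and 93 genes with the members, so that which genes are among the 150 depends on the pupae sampled. With ASM pupae alone 65 members were found again and with ESM pupae alone 69.

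The limit of the rule fell within a continuous series of values. The last 3 members were Lda.1056, Lda.8582 and Lda.30173, with smallest steps of 0.3167, 0.3160 and 0.3158 VST units. Just outside lay Lda.6656, Lda.31656 and Lda.16581, with 0.3131, 0.3130 and 0.3128. A fixed step in VST units is not a fixed fold, and 97.3% of the members had an overall mean normalised count from 10 to 500, against 62.7% of all genes and 81.3% of the eligible ones. On log2 of the normalised count + 1, the rule found 104 of the 150 again, and without the upper limit on a step it found 136.

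Of the members, 15 carried a description in the tables of the study, 12 with a protein name and 3 as uncharacterised proteins. Descriptions are putative, and genes entered those tables in part because of results on these same pupae. All 15 rose at each of the 4 steps in both strains, except that the intraflagellar transport gene Lda.35570 rose at only 3 of 4 in ASM pupae. The remaining members are given by their identifiers.

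Several of the described members move ions and nutrients across membranes. Lda.12060, a putative anion exchange protein 2 (in mammals an exchanger of chloride for bicarbonate), had the largest smallest step among them, 0.79 VST units. Its normalised count was 7.41, 3.42 and 4.29 in the ASM pupae of day 1 and 7.81, 9.46 and 10.8 in the ESM pupae. On day 11 it was 425, 413 and 122 in ASM and 291, 385 and 277 in ESM pupae. No pupa of day 11 came near those of day 1, the mean over both strains rose 44.3-fold, and 1 ASM pupa of day 11 lay well below the other 5. Lda.32369, resembling the proton-coupled amino acid transporter CG1139 of *Drosophila*, went from 26.3 ± 9.13 (SD, n = 6) to 298 ± 47.6, a ratio of 11.3. Lda.925, resembling zinc transporter 2, which in mammals loads zinc into vesicles, went from 48.9 ± 12.8 to 383 ± 110.1 (SD, n = 6), a ratio of 7.84.

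Among the sugar genes, Lda.28940, a putative facilitated trehalose transporter (Tret1, which carries trehalose across cell membranes), was the least abundant member on day 11. Its normalised count was 0 in all ESM pupae of day 1 and 0, 1.14 and 1.07 in the ASM pupae, or 2 reads in all. On day 11 it was 20.4, 23.1 and 27.9 in ASM and 12.9, 9.33 and 15.0 in ESM pupae, so all ASM pupae lay above all ESM pupae. The ratio of day 11 to day 1 was 49.1, with a 95% counting interval of 12.9 to 395 (exact, counting error only). The other putative trehalose transporters followed other courses. Lda.25670 was highest on day 3, at 119.7 ± 117 against 16.4 ± 10.2 on day 1 and 36.0 ± 11.9 on day 11 (SD, n = 6). Lda.18357 dipped from 42.1 to 23.9 and then rose to 131, and Lda.33282 was highest on day 5, at 38.3.

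Lda.14425, a putative UTP-glucose-1-phosphate uridylyltransferase, makes UDP-glucose, the donor for glycogen and trehalose synthesis. It had the smallest spread between pupae of a group among all members, with a residual SD of 0.27 VST units against a median of 0.54 for the members and 0.47 for all genes tested. Its normalised count was 166, 163 and 157 in ASM and 194, 205 and 208 in ESM pupae of day 1, and 557, 456 and 515 and 614, 555 and 518 on day 11. This is a rise of 2.94 times without overlap between these days. A pair of putative UDP-glucuronosyltransferases, named after enzymes that in mammals attach glucuronic acid to small molecules, also ended high but was flat at first. On days 1, 3 and 11 Lda.18407 had 119, 115 and 534, and Lda.25708 had 20.2, 21.0 and 153. By contrast, the putative UDP-glucuronate decarboxylase Lda.25759 fell at every step, from 96.2 to 59.9.

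The members also held genes of cilia and microtubules. In insects, cilia are found on sensory neurons, where intraflagellar transport carries their building blocks, and as sperm tails. Lda.35570, a putative intraflagellar transport protein (IFT172), had 2.96, 0 and 3.22 normalised counts in ASM and 0, 7.28 and 3.25 in ESM pupae of day 1. On day 11 it had 42.2, 33.4 and 66.5 in ASM and 73.7, 48.6 and 77.1 in ESM pupae, a ratio of 20.5 between the day means. A further model with the same description, Lda.27201, was not a member because its last step was 0.20 VST units, and had 3.80 ± 1.87 on day 1 and 58.2 ± 16.9 on day 11 (SD, n = 6). Whether both models belong to the same gene cannot be told from the table. Lda.28500, resembling cytosolic carboxypeptidase 5, which in mice trims glutamate side chains from tubulin, went from 96.1 ± 14.6 to 526 ± 54.2 (SD, n = 6), a ratio of 5.47. The putative tubulin polyglutamylase TTLL4 (Lda.40375), whose known reaction is the opposite one, had 479 on day 1, 673 on day 5 and 609.8 on day 11. In a list of 9 genes of cilia and tubulin modification, 2 were members and 3 rose at all 4 steps, against 0.763% and 5.49% of all genes. The list is too short for these shares to be compared closely, and it includes Lda.35570 and its further model, which both rose at all 4 steps. Over the 9 genes the median steps were 0.64, 0.58, -0.23 and 0.11 VST units, so the list as a whole did not rise at every step.

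Further described members belonged to signalling, detoxification and RNA processing. Lda.36789 resembles a cGMP-specific phosphodiesterase, an enzyme that ends cGMP signals, and rose from 24.5 ± 3.98 to 142 ± 36.6 (SD, n = 6). The putative cGMP-dependent protein kinase Lda.24534 took the opposite course, from 77.3 ± 37.7 to 6.56 ± 3.16 (SD, n = 6). Of the other genes of cGMP signalling, Lda.10748 rose at all 4 steps, from 20.3 to 46.5. Lda.22433 and Lda.966 were lowest on day 5 (84.4) and day 8 (11.4) and rose afterwards. Lda.6655, a putative cytochrome P450 6B4 from a family known in butterflies for breaking down plant toxins, rose from 7.99 ± 4.93 to 105 ± 11.2, a ratio of 13.1. By means over both strains, the other putative P450 genes measured, Lda.5534 and Lda.1208, were lowest on day 5 (34.9) and day 3 (20.1). Both were highest on day 8 (243 and 137). These means mix unlike strains. Lda.5534 was lower in ASM by -4.04 ± 0.77 VST units (difference ± standard error, limma adjusted p = 0.00046) and ran from 0 to 472 between pupae of day 1. Lda.1208 was higher in ASM by 1.76 ± 0.475 VST units (limma adjusted p = 0.00861). Lda.761, resembling UTP14A, a factor of the processing of ribosomal RNA in the nucleolus, reached the highest level of the described members. It went from 133 ± 21.0 to 733 ± 84.4 (SD, n = 6), with little spread between pupae (residual SD 0.31 VST units). Lda.38185, derived from a tigger DNA transposon, rose from 12.4 ± 1.75 to 91.2 ± 19.0. Lda.38185 is not in the list of 40 measured genes with transposon-related descriptions, of which none rose at all 4 steps.

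**Figure D3:**
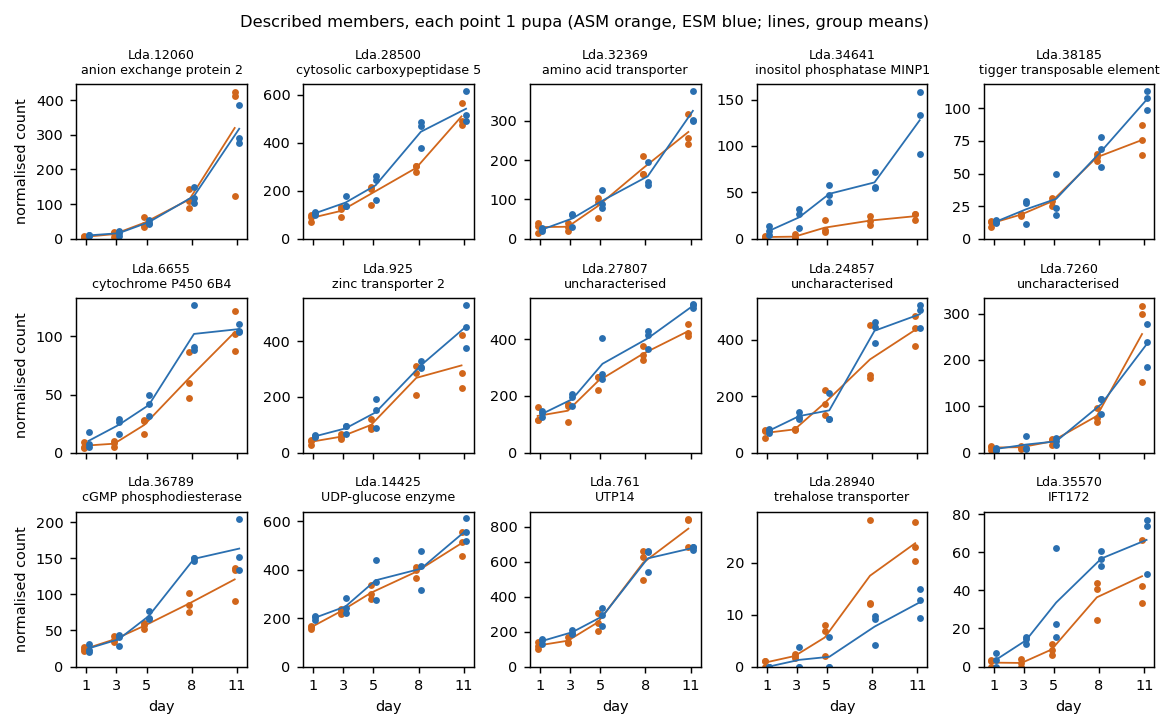
Normalised count of the 15 described members in each pupa (points) against the day after pupation, with group means as lines, on axes that start at 0. ASM pupae lie below ESM pupae for Lda.34641 on all 5 days and above them for Lda.28940 on day 11.

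The multiple inositol polyphosphate phosphatase Lda.34641 (MINP1, which removes phosphate groups from inositol hexakisphosphate) rose from 5.06 ± 4.72 to 76.0 ± 60.7 over both strains (SD, n = 6). Its levels by strain are given with the strain comparison. The uncharacterised Lda.27807, Lda.24857 and Lda.7260 rose 3.56-, 6.30- and 26.1-fold. Lda.7260 stayed low until day 5 (24.1 ± 6.50) and then reached 92.0 ± 21.2 on day 8 and 245 ± 65.7 on day 11 (SD, n = 6).

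Of the 10 members with the largest smallest step, only Lda.12060 had a description. Lda.1921 had the largest smallest step and also the largest spread between pupae of a group (residual SD 1.94 VST units). On day 5 its normalised count was 443, 4.97 and 115 in the 3 ASM pupae, and on day 3 it was 67.6, 182 and 0 in the ESM pupae. Its first place therefore rests on means of widely scattered pupae, and within each strain 1 of its 4 steps was downward. The next, Lda.12478, Lda.30823, Lda.31549 and Lda.39962, had smallest steps of 0.99, 0.98, 0.97 and 0.87 VST units and rose at all 4 steps in both strains. Their normalised counts went from 6.39 ± 3.90, 8.34 ± 3.46, 9.24 ± 4.13 and 6.16 ± 6.34 on day 1 to 153 ± 54.1, 172 ± 40.4, 222 ± 88.9 and 260.1 ± 33.2 on day 11 (SD, n = 6). Lda.27579, Lda.40218 and Lda.28162 completed the first 10 together with Lda.12060 and Lda.24693. Like Lda.1921, Lda.18568 and Lda.880 varied strongly between pupae (residual SD 1.26 and 1.41). On day 11 Lda.880 had 743, 47.3 and 84.0 in the 3 ESM pupae.

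By level, the highest members on day 11 were Lda.17716 and Lda.24693, also without a description. Lda.17716 had 246, 305 and 293 in ASM and 522, 314 and 361 in ESM pupae of day 1, and 2333, 1739.7 and 1325 and 1731, 1649 and 1769.5 on day 11. Lda.24693 went from 186 ± 61.4 to 1506 ± 472 (SD, n = 6). Next came Lda.37811, Lda.11943 and Lda.32742, with 809 ± 281, 777 ± 120.0 and 769.6 ± 167 on day 11. These genes rose between 3.84 and 8.08 times. By ratio, Lda.27579 rose 67.3-fold, Lda.4838 53.0-fold and Lda.40218 50.3-fold, from day 1 means under 3 normalised counts. Lda.22106 had only 3 reads over the 6 pupae of day 1, and its ratio of 110.2 had a 95% counting interval of 38.0 to 543. Lda.17760 had no read on day 1 and 19.9 ± 6.67 normalised counts on day 11, which is at least 36.0-fold higher than the limit of 3 reads over the 6 pupae of day 1.

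The other gene lists are too short to be read against the share of members among all genes, 0.763%, and their counts are given as a description. Of 16 genes of energy metabolism, 1 was a member (Lda.14425) and 2 rose at all 4 steps. Of 11 ribosome genes 1 was a member (Lda.761) and 2 rose at all 4 steps. The lists of cuticle (6 genes), neuronal (22 measured), immune (12), adhesion and actin (17), lysosome and autophagy (13), ubiquitin (9), storage and hormone (4) and qPCR reference genes (4) held none. Among these, 3 neuronal, 1 immune and 1 ubiquitin gene rose at all 4 steps, below the limit of the rule. The cuticle list had medians of 0.81, 4.87, -3.27 and -7.62 VST units for the 4 steps, a rise followed by a fall.

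The strains were compared to ask whether these genes were at the same level, and rose at the same pace, in flight-capable ASM and in ESM pupae. Averaged over the 5 days, 39 members (26.0%) differed between the strains, against 23.4% of all genes tested, so the number called was near the background. The direction was uneven. Lower levels in ASM were called in 34 members (22.7%), against 10.9% of all genes, and higher levels in 5, against 12.4% of all genes. Over the members the median of ASM minus ESM came to -0.26 VST units, and over all genes to 0.02, and it was below 0 in 113 of 150 members. With all libraries brought to a common median the members called were 32 lower and 5 higher, and 4567 of all 19652 genes were called in either direction. The shares of all genes called lower and higher in that fit are not given here. The tests were made with limma on the VST values. The model had 10 group means (strain by day), p was adjusted over 19652 genes by the Benjamini-Hochberg method, and calls were made under an adjusted p of 0.05. Each strain is 1 colony, so the p-values measure the spread between pupae within colonies.

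The called members lower in ASM differed by -0.39 to -2.22 VST units (median -0.75). The largest difference was that of the inositol phosphatase Lda.34641, at -2.22 ± 0.20 VST units (difference ± standard error, limma adjusted p = 1.86e-08). On day 1 its normalised count was 2.96, 0 and 2.14 in ASM pupae and 7.81, 13.1 and 4.33 in ESM pupae, and on day 3 it was 0, 1.71 and 4.81 against 26.1, 31.8 and 11.1. The same order held on day 5, with 7.09, 8.95 and 19.6 against 47.2, 58.3 and 39.5, and on day 8, with 24.5, 19.3 and 14.6 against 54.8, 55.5 and 71.7. On day 11 it was 26.2, 26.4 and 20.1 in ASM and 158, 134 and 90.9 in ESM pupae. Every ASM pupa lay below every ESM pupa on each of the 5 days, which no other named member showed. Lda.34641 was also the only member called on day 5, and it was called on days 3, 5, 8 and 11 (limma adjusted p = 0.00118, 0.00414, 0.00741 and 0.000254). The gene with the next identifier, Lda.34642, was a member as well and also differed, by -0.92 ± 0.19 VST units (difference ± standard error, limma adjusted p = 0.000807). Positions of the genes were not part of the table.

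Of the 15 described members, 8 were called, 7 of them lower in ASM, against 23.4% and 10.9% of all genes. Genes received descriptions in part because of results on these same pupae, so this count is no independent evidence. The intraflagellar transport gene Lda.35570 differed by -1.06 ± 0.22 VST units (difference ± standard error, limma adjusted p = 0.00108). Its mean on day 3 was 1.88 ± 1.98 in ASM and 13.8 ± 1.99 in ESM pupae (SD, n = 3 per group), without overlap. The related model Lda.27201 differed by a similar amount, -1.04 ± 0.21 VST units (limma adjusted p = 0.000674). For the P450 gene Lda.6655 the difference was -0.80 ± 0.17 VST units (difference ± standard error, limma adjusted p = 0.00155), and on day 3 it had 9.86, 5.13 and 8.02 in ASM and 29.0, 26.7 and 15.8 in ESM pupae. The zinc transporter Lda.925 was lower, at -0.73 ± 0.17 VST units (difference ± standard error, limma adjusted p = 0.00335) and the carboxypeptidase Lda.28500 at -0.50 ± 0.14 VST units (difference ± standard error, limma adjusted p = 0.00915). The phosphodiesterase Lda.36789 differed by -0.48 ± 0.13 VST units (difference ± standard error, limma adjusted p = 0.00956) and the uncharacterised Lda.27807 by -0.39 ± 0.13 VST units (difference ± standard error, limma adjusted p = 0.0264).

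Higher levels in ASM were found for the trehalose transporter Lda.28940, at 0.70 ± 0.17 VST units (difference ± standard error, limma adjusted p = 0.00492), and for 4 members without a description. Among those, Lda.24681 differed most, at 1.07 ± 0.20 VST units (difference ± standard error, limma adjusted p = 0.000298). On day 11 it had 109.7, 67.5 and 144 in ASM and 39.6, 26.6 and 29.9 in ESM pupae, and on day 5, where it had 48.6, 35.8 and 25.4 against 20.2, 25.0 and 42.9, the strains overlapped. Lda.19373 and Lda.31213 differed by 0.74 and 0.68 VST units. The call of Lda.37811 (0.47 VST units, limma adjusted p = 0.0387) was lost without any 1 of 15 of the 30 libraries, with an adjusted p of up to 0.0750. Toward ESM, the members without a description with the largest differences were Lda.34886, Lda.4380, Lda.4835 and Lda.16393, at -1.27, -1.18, -1.10 and -1.09 VST units. Lda.4380 had 21.8, 28.3 and 15.5 on day 11 in ASM and 60.8, 59.3 and 54.7 in ESM pupae, without overlap. Of the other trehalose transporters, Lda.33282 was also higher in ASM (1.93 ± 0.21 VST units, limma adjusted p = 2.25e-07), whereas Lda.18357 was lower (-1.07 ± 0.28 VST units, limma adjusted p = 0.00777).

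**Figure D4:**
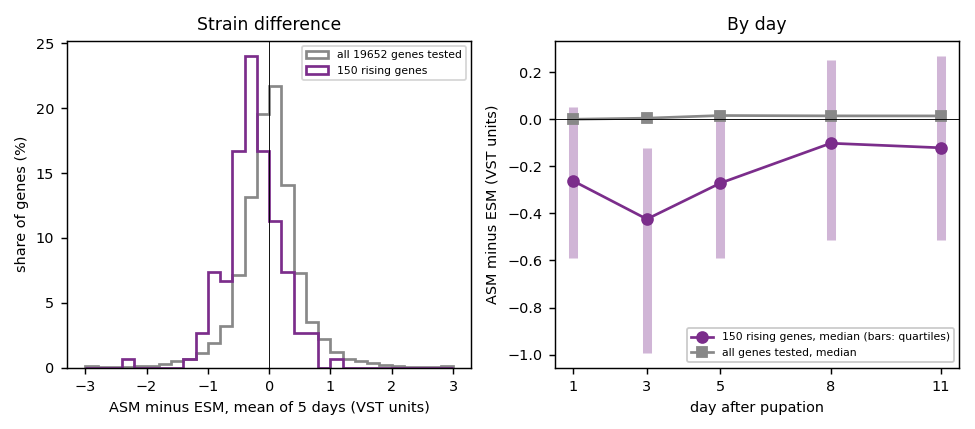
Left, distribution of the difference of ASM minus ESM averaged over 5 days in VST units, as percent of genes, for the 150 members and all 19652 genes tested (values beyond 3 are drawn in the outermost bins). Right, medians by day with the quartiles of the members as bars. The median of the members was below 0 on all 5 days and lowest on day 3, at -0.42.

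On days 1, 3, 5, 8 and 11 the members had a median difference of -0.26, -0.42, -0.27, -0.10 and -0.12, while that of all genes lay between 0.00 and 0.02. In normalised counts the median member had 15.8 in ASM and 16.4 in ESM pupae on day 1, 21.7 and 33.6 on day 3, and 144 and 151 on day 11. The mean was lower in ASM in 105, 122, 116, 86 and 86 of the 150 members in the order of the days. On day 3, 13 members were called (8.67%), 12 of them lower in ASM, against 8.57% of all genes called in either direction and 4.61% called lower. On day 8, 7 were called (4.67%) against 6.36% of all genes, and on day 11, 10 (6.67%) against 4.90%. On day 5 it was 1 member (0.667%), against 2.48%. None was called on day 1, against 3.67% of all genes, with 19 members (12.7%, against 16.1% of all genes) at an unadjusted p under 0.05 in limma and none called with voom.

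The counts on single days rest on few pupae. On day 3, leaving out ASM replicate 1 or 2 gave 8 or 5 called members, and leaving out ESM replicate 1, 2 or 3 gave 3, 6 or 23. On day 8, it was 4 or 1 without ASM replicate 1 or 2, and 4, 3 or 2 without ESM replicate 1, 2 or 3. On day 11, it was 3 or 4 without ASM replicate 1 or 3, and 3 without ESM replicate 1 or 2. With the 6 libraries of a day fitted alone, limma called 0 members on day 3, 4 on day 8 and 1 on day 11. For the average over the 5 days, no single library moved the count beyond 30 to 48. The shares of all genes called in these fits are not given here, so the counts cannot be set against their background.

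The comparison of the pace of the rise called few members, and few of all genes. The rule used means over both strains, in which a gene rising in only 1 strain has smaller steps. Such genes were less likely to be chosen, so few calls among the members were partly built in. A difference between the strains in the linear trend over days was called in 0 of 150 members, against 1.57% of all genes. At an unadjusted p under 0.05 limma had 20 members (13.3%, against 15.6% of all genes), and voom also called none. A strain difference that varied among days (moderated F test of limma over 4 contrasts) was called in 1 member (0.667%), Lda.15501, against 3.65% of all genes. Its normalised count rose from 40.0, 25.1 and 69.7 in ASM pupae of day 1 to 54.2, 49.6 and 36.1 on day 3 and 180.3, 136 and 116 on day 5. In ESM pupae the larger step came before day 3, from 25.0, 26.2 and 24.9 to 172, 149.7 and 85.5 and 106, 189 and 85.8 on the same days. With voom the adjusted p was 0.0946, and single libraries decided the call. It was lost without ASM replicate 1, 2 or 3 of day 3 (0.0609, 0.0754 and 0.0932), ESM replicate 1 or 2 of day 3 (0.132 and 0.114), or replicate 1 of day 8 in either strain (0.0524 and 0.0505).

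Pupae of the same strain and day differed in the level of the members as a group. For each pupa, the VST values of the members were expressed as deviations from the mean of its group and averaged, which is independent of the day means that the rule used. These averages ran from -0.49 to 0.42 VST units. The widest groups were ESM on day 5, at -0.49, 0.42 and 0.07 for replicates 1, 2 and 3, and ESM on day 3, at 0.38, 0.00 and -0.39. In the lowest of these pupae 21 of 150 members lay above their group mean and in ESM replicate 1 of day 3 it was 123. On day 11 the ESM pupae differed by little (-0.02 to 0.02), whereas the ASM pupae ran from -0.25 to 0.22. The mean deviation over all genes stayed between -0.04 and 0.07. The 150 genes chosen by the mirrored rule for falling genes deviated in the opposite direction in 22 of the 30 pupae. Members therefore shifted together between pupae of a group, and the largest shifts of single pupae reached the size of the median strain difference of -0.42 on day 3. That difference compares means of 3 pupae, in which a shift of 1 pupa counts for less. The part of such shifts in the strain difference was not tested.

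**Figure D5:**
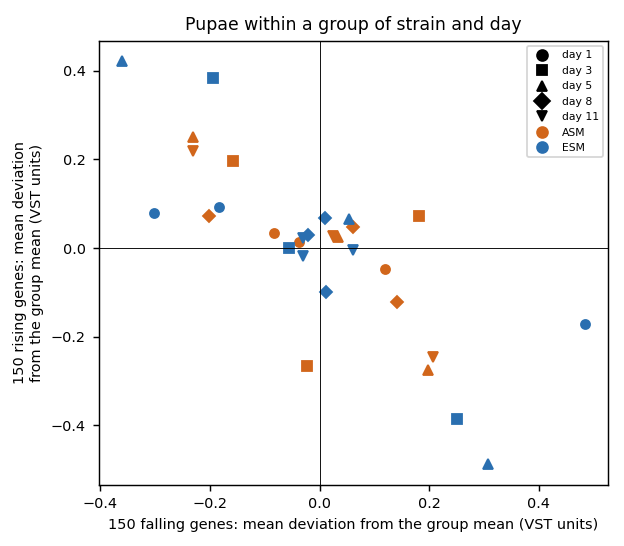
Each point is 1 pupa. The vertical axis gives the mean deviation of the 150 rising genes from the mean of the group of that strain and day, and the horizontal axis the same for the 150 falling genes, both in VST units. Pupae with high rising genes tended to have low falling genes, with opposite signs in 22 of 30 pupae.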

How the data were processed

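Libraries were made from polyadenylated RNA of single whole female pupae and read with Ion Proton technology. According to the submitters' processing notes and the methods of the study, reads were checked (FastQC 0.11.5), trimmed (Trimmomatic 0.36), aligned to the draft ASM genome, assembled into gene models (StringTie) and counted per gene (featureCounts 2.0.0), after reads of an iflavirus had been filtered. The deposited values are log2-like values of the variance-stabilising transformation that the authors computed with DESeq2 1.28.1 in R 4.0.2, one table of 19654 genes and 30 libraries. Alignment, counting and filtering by the authors are included in these values and were not repeated.

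Each count has its own step on the curve that the libraries share, and inverting this curve gave reads, 99.9 to 100% of them within 0.05 of a whole number. The lowest value (-0.52) is a count of 0. Size factors (0.445 to 2.06) came from medians of ratios. Intervals cover counting error only, and 0 reads were taken to allow at most 3. The strain comparisons were fitted to the VST values of 19652 genes (those above 0 reads in 3 or more libraries) in limma 3.58.1 under R 4.3.3, with a trend in the variance. The fits and the recovery of reads were tested on simulated data. The remaining steps ran in Python 3.11.15 (pandas 2.3.3, numpy 2.4.6, matplotlib 3.10.9, scipy 1.17.1).

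The members, gene lists and tests were chosen with earlier results of these data known. Families of related genes were chosen by description once the members were known. Named are all described members, the 10 with the largest smallest step, the 5 highest on day 11, the 5 with the largest ratio of day 11 to day 1 among those with at least 3 reads on day 1, the 5 called members with the largest strain difference in each direction, called members of the other tests, the 3 genes on either side of the limit and the 3 members with the smallest and the largest residual SD. Lda.8761, Lda.32890, Lda.17288, Lda.39630, Lda.2283, Lda.34642 and Lda.17760 were named after their values were seen. The rule leaves out Lda.37310. Alternatives were log2 of the normalised count + 1, voom on the recovered reads, other filters, libraries shifted to the same median, a replicate block, no trend in the variance, each day fitted alone and each library left out.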

Additional observations from a re-analysis of the deposited data

Results flagged for a closer look

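The strain difference of 1 member, Lda.15501, varied among days (moderated F test of limma, adjusted p = 0.0332), and this test of a difference between the strains set it apart from the other members. The 3 ASM pupae of day 3 had a mean of 46.6 ± 9.43 normalised counts and the 3 ESM pupae one of 136 ± 44.9 (SD), without overlap. By day 11 the ASM pupae were the higher ones, at 213 ± 27.8 against 160.5 ± 42.4 (SD, n = 3 per group), again without overlap, whereas on day 5 the strains overlapped. Over its 37 alternatives the adjusted p ran from 0.00799 to 0.132, and it stayed under 0.05 in 29. Groups of 3 pupae are too small for the check of single samples that stand apart, which was not run.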

How the results depend on the processing

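The number of members lower or higher in ASM over the 5 days stayed within 1.5 times the reported count in all fits but that on genes above the lowest value in all 30 libraries, where 122 members were tested and 23 called, 19 of them lower. Leaving out single libraries gave 30 to 48 called members (26 to 44 lower). On single days the counts moved more. With log2 of the normalised count + 1 they were 2 on day 1, 2 on day 8 and 5 on day 11. In the same fit 603, 1204 and 985 of all 19652 genes were called on these days. With the filter in all libraries the members called were 7, 0, 4 and 4 on days 3, 5, 8 and 11, and with each day fitted alone 0, 0, 4 and 1. Leaving out single libraries gave 0 to 2, 3 to 23, 1 to 4, 1 to 9 and 3 to 11 on days 1, 3, 5, 8 and 11, and 0 to 2 for the slope difference and 0 to 3 for the interaction. The interaction was called in 2 members with log2 of the normalised count + 1 and in 0 with voom, against 602 and 293 of all genes. The cause of these moves was not tested, apart from fewer genes or pupae in the fit. Shares of all genes are not given for the other filter, the single-day fits or the fits without a library. The rule found 65 members again in ASM pupae alone, 69 in ESM pupae alone and 79 to 93 with a replicate of each group left out.

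Of the named members called for the strain difference, Lda.27579 was lost with voom (adjusted p = 0.0568). Lda.40218 was lost with voom (0.101) and without ASM replicate 2 of day 8 (0.0528), ESM replicate 1 of day 3 (0.0528) or ESM replicate 3 of day 8 (0.0505). Lda.37811 was lost in 15 of 37 alternatives, each leaving out a library. These were ASM replicates 1 and 2 of day 1, 1 of day 3, 2 of day 5, 2 of day 8 and 1 of day 11, and ESM replicates 2 and 3 of day 1, 1 and 2 of day 3, 1 and 3 of day 5, 1 and 2 of day 8 and 2 of day 11. Lda.30173 was lost in 22 of 37. No difference changed direction.

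With a replicate block, 40 members were called for the strain difference (35 lower), 0, 14, 1, 7 and 10 on days 1, 3, 5, 8 and 11, 1 for the interaction and 0 for the slope. Over all genes the counts were 4585 for the strain difference and 688, 1684, 494, 1272 and 949 on the same days. For the interaction and the slope they were 736 and 315. The correlation of deviations of same-numbered ASM and ESM pupae ran from -0.21 to 0.48 and was over 0.1 in 6 of 15 pairs. On day 1 it was 0.41, 0.18 and 0.21, against -0.32 to 0.21 in pairs with different numbers. On day 5 it was 0.42, 0.48 and -0.0009, against -0.58 to 0.31. On day 3 it was -0.09, -0.03 and -0.21, against -0.10 to 0.18. The labels do not say what a replicate number stands for, and whether same-numbered pupae share a source of variation was not tested.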
